A study of Mus musculus with 3 samples.

Results

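Runx3 occupancy and H3K4me1 marking were examined at the 31 mouse genes whose symbols start with Tnfsf (11 ligand genes) or Tnfrsf (20 receptor genes), out of 22283 protein-coding genes of GENCODE M1 on mm9. The rule that picks them uses the symbol and no measured value, although the family was taken up with earlier results of these data known. Each member was measured over the gene with 10 kb on either side, which is called its window here. The data came from 3 ChIP-seq samples, 1 each for Runx3, for H3K4me1 and for non-immune serum (NIS), the control, all from resting NK cells taken fresh from spleens of ICR mice. No cells in the series lacked Runx3 and none were activated. NK cells were enriched by negative selection and sorted, on NKp46 per the labels and on DX5 per the study's methods. A deposited Runx3 region is called a peak, and H3K4me1, a histone mark of enhancers and promoter flanks, was deposited as regions. Each antibody had 1 list of coordinates without scores or read numbers and no replicate list, so presence and position were compared and signal strength was not. The 95% intervals below are Wilson intervals over genes or peaks, cover counting error only, and hold no biological spread.

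TNF superfamily ligands are trimeric, mostly membrane-bound proteins, and their receptors carry cysteine-rich repeats outside the cell. Receptors with a cytoplasmic death domain can start apoptosis through adaptors such as FADD and TRADD. Many of the others recruit TRAF proteins and activate NF-kB, while decoy receptors do not signal in this way. In NK cells, TRAIL and Fas ligand contribute to killing of target cells, and costimulatory receptors such as CD137, OX40 and GITR modulate the response of activated lymphocytes.

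The cell label was checked against markers first. All 10 NK cell marker genes had at least 2 peaks (median 3.5, range 2 to 8), and H3K4me1 covered a median of 74.1% of their windows. The T cell, B cell and myeloid lists of 8 genes each had a peak at 4, 6 and 3 genes, at most 2 per gene, and median H3K4me1 coverage of 11.8%, 6.59% and 5.57%. Of all genes, 44.2% had at least 1 peak and 19.9% at least 2, and the median coverage was 7.69%. In these 3 lists, Cd8a, Cd8b1, Ms4a1, Lyz2, Emr1 and Siglech had neither a peak nor a region. Others went the other way, as Cd3d, Cd3g, Cd79a and Elane had a peak and coverage of 55.1%, 55.3%, 40.6% and 37%. The lists thus do not show that other cell types were absent. The part of such other cells in the results below was not tested.

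At least 1 Runx3 peak lay in the windows of 15 of 31 members (48.4%, interval 32 to 65.2%), beside 44.2% of all protein-coding genes. Ligands and receptors had nearly the same share, 5 of 11 ligands (45.5%, interval 21.3 to 72%) and 10 of 20 receptors (50%, interval 29.9 to 70.1%). The difference, receptors minus ligands, was 4.55 percentage points (Newcombe interval -28.7 to 36), so a difference was not detectable with this number of genes. The members differed from the whole gene set less in whether they had a peak than in how many. At least 2 peaks were found at 12 of 31 members (38.7%, interval 23.7 to 56.2%), against 19.9% of all genes, and at least 5 at 3 of 31 (9.68%), against 2.32%. The 12 include Tnfsf13 and Tnfrsf26, whose peaks all lay outside the gene. All 5 bound ligands had 2 or 3 peaks and none had 1, but Tnfsf12 and Tnfsf13 held the same 2 peaks. Of all genes, 24.3% had 1 peak, 11.3% had 2 and 4.6% had 3.

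Per 100 kb of window, there were 3.34 peaks at receptors, 2.7 at ligands and 1.27 over all genes. These rates divide by the summed windows, whose mean size was 44.9 kb at receptors, 37.1 kb at ligands and 65.6 kb over all genes, so long genes weigh on the last. With every gene given equal weight, the mean rates were 3.49, 3.11 and 1.84 peaks per 100 kb. The receptor rate rested on 3 genes. Tnfrsf1b, Tnfrsf8 and Tnfrsf9 together held 18 of the 38 distinct member peaks (47.4%), and the other 17 receptors had 1.65 peaks per 100 kb, a split made after the values were seen. All 3 genes are on chromosome 4, which carried 9 members and 20 of the 38 peaks.

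**Figure D1:**
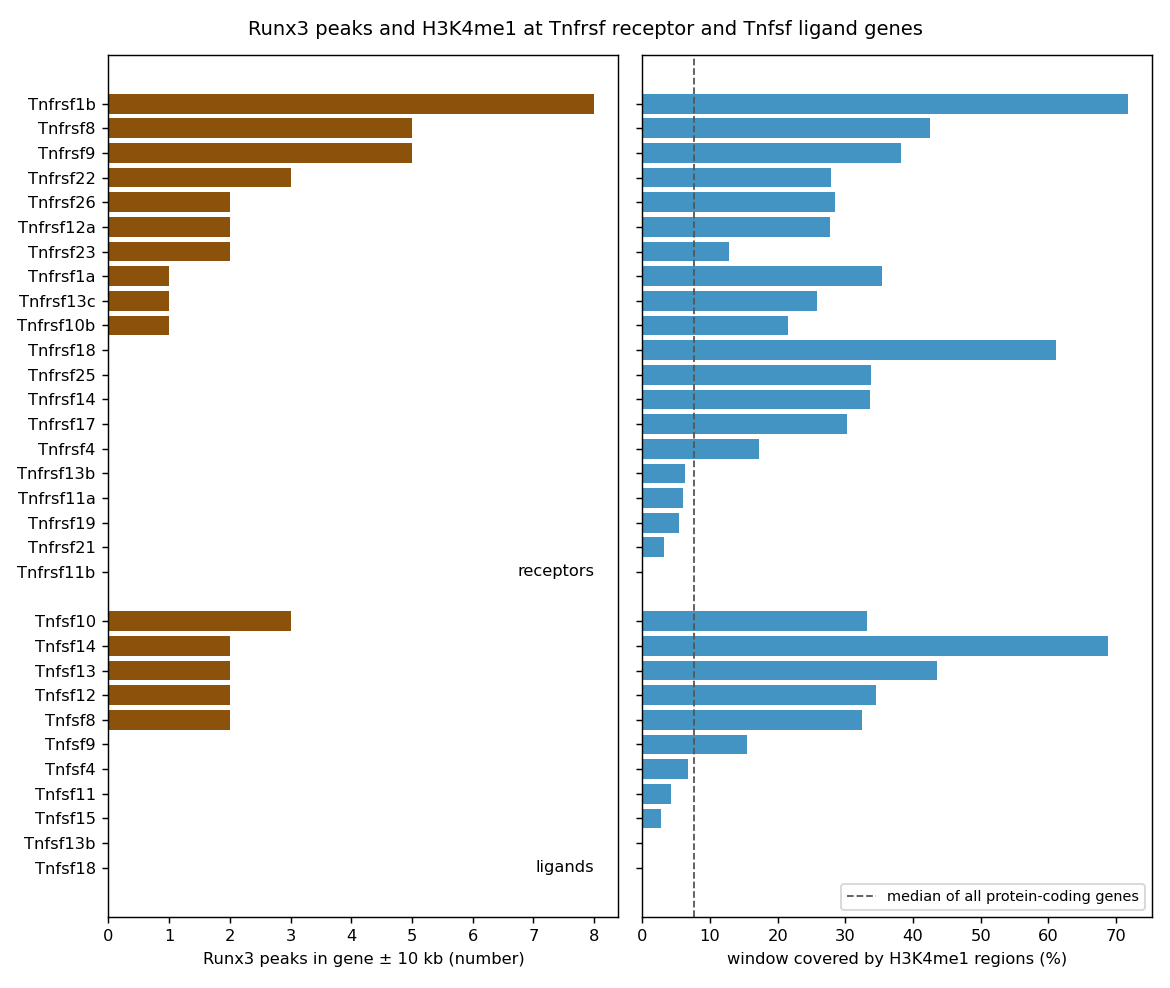
Number of Runx3 peaks (left) and percent of the window covered by H3K4me1 regions (right) for the 20 receptors and 11 ligands, each gene with 10 kb on either side; the dashed line is the median of all protein-coding genes (7.69%). Tnfrsf1b has 8 peaks and the widest coverage (71.8%), while Tnfrsf18 has no peak and 61.1% coverage.

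**Figure D2:**
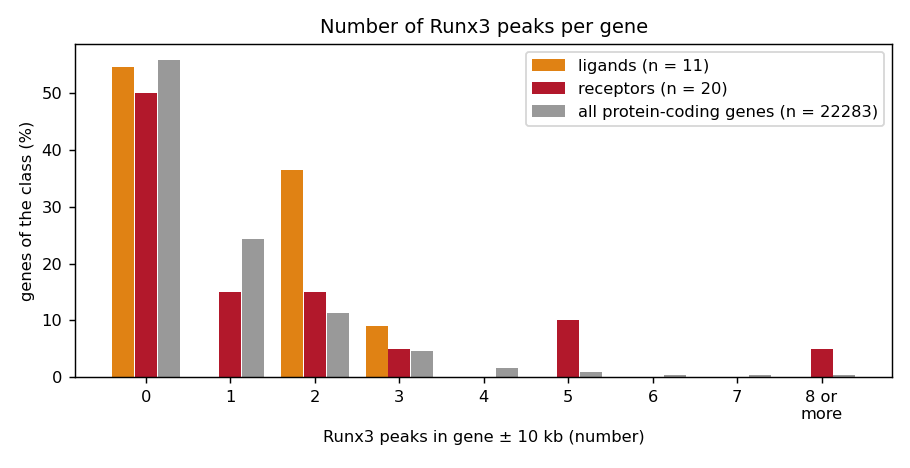
Percent of ligands (n = 11), receptors (n = 20) and all protein-coding genes (n = 22283) by number of Runx3 peaks in the gene with 10 kb on either side. Genes without a peak make up 54.5%, 50% and 55.8%, and the receptors with 5 and with 8 peaks stand apart from the rest of their class.

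H3K4me1 was more widespread at members than Runx3. At least 1 H3K4me1 region lay at 28 of 31 members (90.3%, interval 75.1 to 96.7%), against 70.2% of all genes, and at least 3 at 19 of 31 (61.3%), against 41.9%. Receptors were marked in 19 of 20 cases and ligands in 9 of 11, a difference of 13.2 percentage points (Newcombe interval -9.55 to 43) that could not be told from 0. The median share of the window under H3K4me1 was 27.8% at receptors and 15.4% at ligands, against 7.69% over all genes. Above that level were 15 of 20 receptors and 6 of 11 ligands. A transcript start inside an H3K4me1 region was found at 24 of 31 members (77.4%, interval 60.2 to 88.6%), against 43.6% of all genes.

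Tnfrsf1b encodes the TNF receptor without a death domain, which binds TNF and signals through TRAF proteins. The gene (chromosome 4, 144803366 to 144836773, minus strand) had the most Runx3 peaks of the family. Its 8 peaks amounted to 15 per 100 kb of window, and 108 of all genes (0.485%) had as many. H3K4me1 covered 71.8% of the window in 7 regions, a coverage reached by 124 genes (0.556%). A total of 2 peaks lay upstream, 7.74 and 3.23 kb before the start, 5 lay in introns between 2.55 and 25.2 kb after it, and 1 lay past the gene end at 35.5 kb, nearer to the start of the neighbouring Vps13d. None lay within 1 kb of the annotated start. All 8 overlapped H3K4me1, as did 95.7% of all Runx3 peaks. A single region of 13.7 kb that began 403 bp after the start held 3 of the intronic peaks. Its width was reached by 456 of 49902 H3K4me1 regions (0.914%). The peak 3.23 kb upstream held 6 RUNX consensus matches, including a pair that overlapped by 1 base near its midpoint. The consensus was searched on both strands as TGTGGT or TGTGGC and, with C in place of the middle T, as TGCGGT or TGCGGC. From Tnfrsf1b are shown that pair and the match 2 bp from the midpoint of the farther upstream peak, with the matches in capitals.
Tnfrsf1b peak 2 (chr4:144839971-144840030, plus strand): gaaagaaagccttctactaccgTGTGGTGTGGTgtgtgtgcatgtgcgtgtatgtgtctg
Tnfrsf1b peak 1 (chr4:144844480-144844539, plus strand): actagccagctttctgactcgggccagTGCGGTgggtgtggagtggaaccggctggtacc

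Tnfrsf1a encodes the death-domain TNF receptor. It had 1 intronic peak, 3.7 kb from the nearest of its 7 annotated starts and 4306 bp downstream of the outermost one, inside an H3K4me1 region of 5.68 kb. The peak held 4 RUNX matches. H3K4me1 covered 35.4% of the window. Of the TNF receptor genes, Tnfrsf1b thus carried 15 and Tnfrsf1a 3.02 peaks per 100 kb.

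Tnfrsf8 encodes CD30, a costimulatory receptor of activated lymphocytes. It lies 20.3 kb upstream of Tnfrsf1b on the same strand. Its 5 peaks were all intronic and all overlapped H3K4me1. They fell into a group of 3 at 2.49, 9.11 and 14.9 kb after the start and a group of 2 at 36.7 and 40 kb. The latter are closer to the start of Tnfrsf1b (31555 and 28228 bp) than to that of Tnfrsf8, so coordinates do not assign them to either gene. No peak was shared between both windows, and together the 2 genes held 13 peaks. The third Tnfrsf8 peak held 7 matches, while the second held none. Shown are the matches nearest the midpoints of the first and the fifth peak.
Tnfrsf8 peak 1 (chr4:144902488-144902547, minus strand): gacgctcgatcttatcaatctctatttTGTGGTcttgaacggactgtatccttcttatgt
Tnfrsf8 peak 5 (chr4:144864990-144865049, minus strand): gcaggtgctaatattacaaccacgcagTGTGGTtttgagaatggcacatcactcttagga

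Tnfrsf9 encodes CD137, a costimulatory receptor induced on activated T and NK cells. It had 5 peaks, all with H3K4me1, and 7 H3K4me1 regions over 38.3% of the window. GENCODE M1 lists 8 starts for this gene, spread along its 5' part, and 3 peaks had their midpoint within 1 kb of one of them, at 84, 499 and 11 bp. Another lay 1.32 kb from a start. The fifth, 4.68 kb before the outermost start, lay 17 bp from the start of Park7, the neighbouring gene for a protein linked to oxidative stress. The widest of the peaks (1776 bp) held 9 RUNX matches, a number reached by 200 of all 15524 Runx3 peaks (1.29%). The match at the midpoint of the third peak and that at the midpoint of the peak over the outermost start are shown, the latter in 30 bases because it touches a 5' untranslated exon.
Tnfrsf9 peak 3 (chr4:150295590-150295649, minus strand): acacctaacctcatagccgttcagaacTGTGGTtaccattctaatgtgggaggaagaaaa
Tnfrsf9 peak 2 (chr4:150288736-150288765, plus strand): tggggaggacacTGCGGTccctgggcaccc

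**Figure D3:**
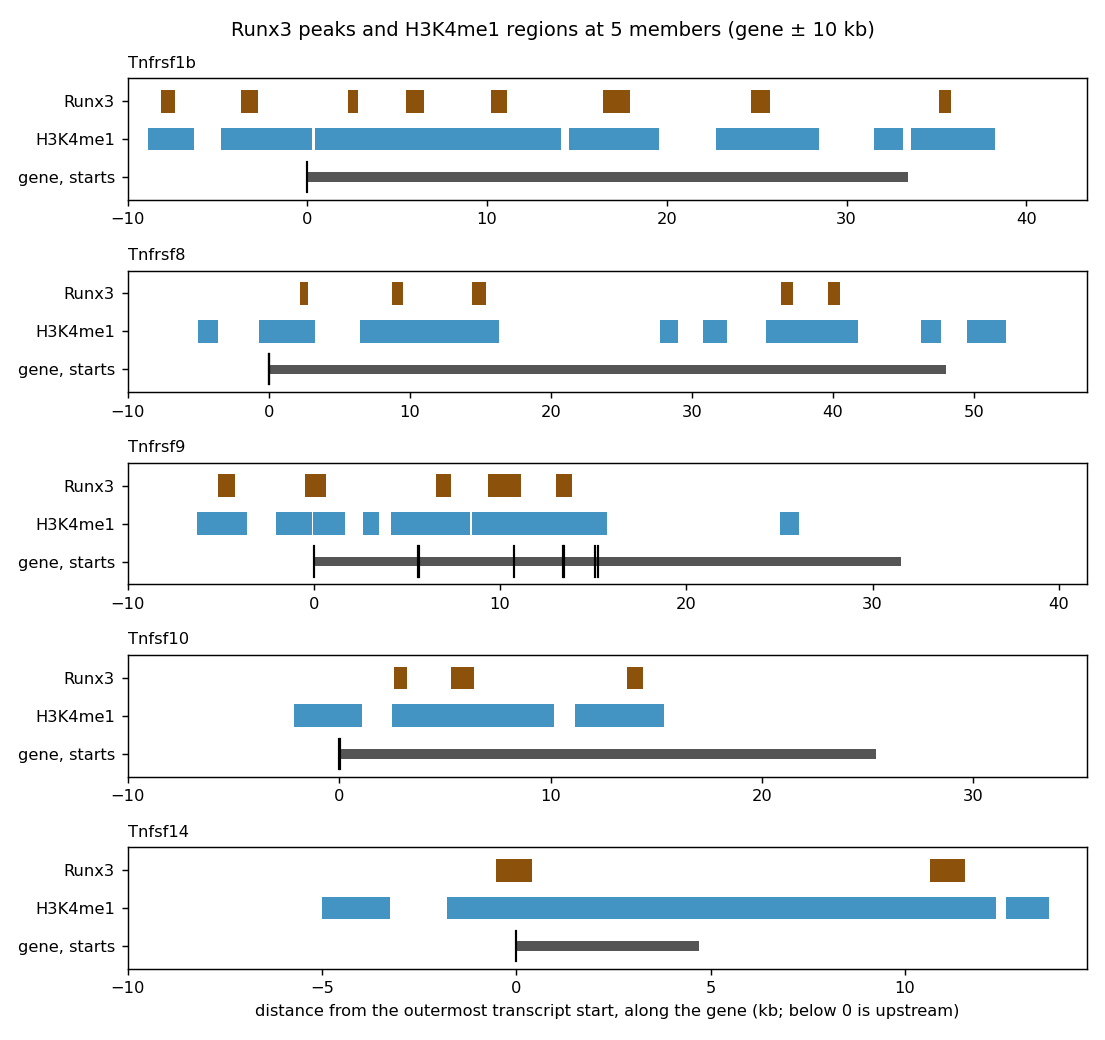
Runx3 peaks, H3K4me1 regions, gene body (grey) and transcript starts (black ticks) at Tnfrsf1b, Tnfrsf8, Tnfrsf9, Tnfsf10 and Tnfsf14 by distance from the outermost start in kb, read along the gene. The 8 Tnfrsf1b peaks are spread from 7.74 kb upstream to 35.5 kb downstream of the start, whereas 3 of 5 Tnfrsf9 peaks lie within 1 kb of an annotated start.

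The other costimulatory receptors listed under Tnfrsf symbols had no Runx3 peak in their windows. Of the list of 6 (Tnfrsf4, Tnfrsf8, Tnfrsf9, Tnfrsf14, Tnfrsf18 and Tnfrsf25), 2 had peaks (44.2% of all genes) and all 6 had H3K4me1 (70.2% of all genes), with a median coverage of 36%. Tnfrsf18, which encodes GITR, had H3K4me1 over 61.1% of its window, a coverage reached by 319 genes (1.43%), although the nearest Runx3 peak was 33.8 kb away. Most of that coverage was 1 region of 11.6 kb that contained the gene and no peak, and 710 H3K4me1 regions (1.42%) were as wide. Its neighbour Tnfrsf4 (OX40), 9.55 kb away, had 17.2% coverage, none of its starts under H3K4me1 and the nearest peak at 21.5 kb. Tnfrsf25, the death-domain receptor DR3, and Tnfrsf14, the herpesvirus entry mediator HVEM, had 33.8% and 33.7% coverage, with the nearest peaks at 16.8 and 138 kb. H3K4me1 without a Runx3 peak was thus found at 4 of these 6 receptors, beside 26.2% of all genes. Of these 4, Tnfrsf4 and Tnfrsf18 are not independent, since both windows held the same 2 H3K4me1 regions.

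All 3 genes listed here as TRAIL receptors and decoys (Tnfrsf10b, Tnfrsf22 and Tnfrsf23) had a peak in the window, beside 44.2% of all genes. At Tnfrsf10b the only peak lay over a tandem repeat. Tnfrsf10b, which encodes the mouse death receptor for TRAIL, had 1 peak, 8.76 kb upstream of the start. The peak was only 609 bp wide and held 22 matches, all TGTGGT and all on the minus strand. They spanned 360 bp, and 18 of the 21 steps from one match to the next were exactly 17 bp and the rest 16 bp. The matches are thus units of a short tandem repeat in the mm9 sequence. Of all 15524 Runx3 peaks, 11 (0.0709%) held as many matches. A stretch with 6 of the units is shown as read on the strand of the matches.
Tnfrsf10b peak 1 (chr14:70158224-70158323, minus strand): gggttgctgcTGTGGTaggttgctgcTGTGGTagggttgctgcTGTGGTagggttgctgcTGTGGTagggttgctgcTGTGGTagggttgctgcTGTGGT
In this peak, 298 of 570 stretches of 40 bases, the read length, recurred within the peak (52.3%). Only uniquely aligned reads were used per the study's methods, so reads from those stretches could not be counted.

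Tnfrsf22 and Tnfrsf23 encode mouse decoy receptors for TRAIL and lie with Tnfrsf26 in a row on chromosome 7, with gaps of 6.85 and 16.1 kb. Tnfrsf22 had 3 peaks, at 70 bp and 5.54 kb from starts and, for the third, 263 bp from an annotated start near the gene's 3' end. Tnfrsf23 had a peak 16 bp from its start and another 18.9 kb downstream in a 3' untranslated exon. The promoter peak of Tnfrsf22 and the 3' peak of Tnfrsf23 were the only 2 of the 38 member peaks without H3K4me1 overlap. The share with overlap, 36 of 38 (94.7%), was close to the 95.7% of all Runx3 peaks. The promoter peak of Tnfrsf23 held no RUNX match.

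The 3' peaks of Tnfrsf22 and Tnfrsf23 also held repeated matches. The Tnfrsf23 peak had 12, all TGTGGT on the minus strand, at steps of 51 to 156 bp with a median of 52 bp. The Tnfrsf22 peak had 7 on the minus strand, 6 of them TGTGGT, at steps of 51 to 104 bp with a median of 57 bp. Of all peaks, 67 (0.432%) and 613 (3.95%) held as many. The bases around the match nearest the midpoint of each peak are shown side by side, because they share the words next to the match.
Tnfrsf22 peak 3 (chr7:150822721-150822750, minus strand): cttgcctagggaTGTGGTcagtgccttgct
Tnfrsf23 peak 2 (chr7:150852966-150852995, minus strand): cttgcctaggggTGTGGTcagtgccttttt
The share of 40-base stretches that recurred within the peak was 20.3% at Tnfrsf22 and 6.48% at Tnfrsf23. Tnfrsf26, the third gene of the row, had 2 peaks, but neither lay in the gene. The first is the Tnfrsf22 3' peak, which falls into both windows, and the other lay 69 bp from the start of Cars, which encodes a tRNA synthetase.

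Among the remaining receptors, Tnfrsf12a and Tnfrsf13c had peaks at their starts. Tnfrsf12a encodes Fn14, the receptor for TWEAK. Its first peak lay 247 bp after the start and held 6 matches, 4 of them TGCGGC, and its second lay 21 bp from the start of Hcfc1r1. Both shared 1 H3K4me1 region of 6.08 kb. Tnfrsf13c encodes the BAFF receptor, which B cells need for survival. It had 1 peak, 150 bp upstream of a start, with 2 matches, and H3K4me1 over 25.8% of the window. The match 1 bp from the midpoint of that peak is shown.
Tnfrsf13c peak 1 (chr15:82054909-82054968, minus strand): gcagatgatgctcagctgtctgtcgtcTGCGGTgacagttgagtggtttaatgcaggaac
The other receptors of the BAFF and APRIL system had no peak. Tnfrsf17 (BCMA) had 5 H3K4me1 regions over 30.3% of its window and Tnfrsf13b (TACI) 1 region over 6.24%, with the nearest peaks at 59.5 and 32.6 kb.

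The ligand with the most peaks was Tnfsf10, which encodes TRAIL, a death ligand used by NK cells. Its 3 peaks were all intronic, at 2.88, 5.79 and 14 kb from the nearest start, and none lay at the promoter. All overlapped H3K4me1, 2 of them in 1 region of 7.65 kb, and H3K4me1 covered 33.2% of the window. They held 1, 5 and 4 RUNX matches. As many peaks were found at 1919 genes (8.61%). The match 22 bp from the midpoint of the second peak is shown.
Tnfsf10 peak 2 (chr3:27221726-27221785, plus strand): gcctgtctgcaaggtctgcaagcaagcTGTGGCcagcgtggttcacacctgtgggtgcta

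Tnfsf14 encodes LIGHT, a ligand of HVEM and of the lymphotoxin beta receptor. It had the widest H3K4me1 coverage of the ligands, 68.8% of the window, reached by 171 genes (0.767%). A single region of 14.1 kb contained the gene and both of its peaks, 1 at 64 bp from the start and 1 at 11.1 kb, past the gene end. Of all H3K4me1 regions, 417 (0.836%) were as wide. Tnfsf8, which encodes CD30 ligand, had 2 intronic peaks, at 1.4 and 14 kb, each in an H3K4me1 region of over 4 kb. The second Tnfsf8 peak held 2 matches close to its midpoint, 4 bases apart, and the second Tnfsf14 peak a single match 9 bp from it.
Tnfsf8 peak 2 (chr4:63508329-63508388, plus strand): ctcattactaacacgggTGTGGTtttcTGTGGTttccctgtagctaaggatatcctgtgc
Tnfsf14 peak 2 (chr17:57322478-57322537, plus strand): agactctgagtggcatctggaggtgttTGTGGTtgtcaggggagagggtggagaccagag

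Tnfsf12 (TWEAK) and Tnfsf13 (APRIL) are neighbours separated by 465 bp, and their windows held the same 2 peaks, both inside 1 H3K4me1 region of 7.12 kb, and 3 H3K4me1 regions in common. One peak was in an intron of Tnfsf12, 3.19 kb from a start. The other lay 163 bp upstream of a Tnfsf12 start and 86 bp from the start of BC096441. No peak lay within 5 kb of the Tnfsf13 body, so its count came from its neighbour. With overlapping windows joined to single loci, 4 of 10 ligand loci (40%) and 8 of 17 receptor loci (47.1%) had a peak. The 44.2% over all genes is for windows that were not joined, so it is not a like value for these loci.

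Peaks at starts were not more frequent at members than elsewhere. A peak midpoint within 1 kb of one of the gene's own starts was found at 7 of 31 members (22.6%, interval 11.4 to 39.8%), against 27.2% of all genes. They were Tnfsf12, Tnfsf14, Tnfrsf9, Tnfrsf12a, Tnfrsf13c, Tnfrsf22 and Tnfrsf23. Of the 38 distinct peaks, 10 lay within 1 kb of a member start. Split by place, with those 10 included, 21 lay in introns, 9 upstream of genes, 4 downstream and 4 in untranslated exons. The split by place has no share over all Runx3 peaks beside it, so it is not a trait of the members. For 33 the nearest coding start was that of a member, and for 5 that of Vps13d, Park7, Cars, BC096441 or Hcfc1r1.

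H3K4me1 without a Runx3 peak was found at 13 of 31 members (41.9%, interval 26.4 to 59.2%), against 26.2% of all genes. They were 9 receptors and 4 ligands. Beside those already named, Tnfsf9 (CD137 ligand) had 15.4% coverage, and the other 6 had little. Tnfsf4 (OX40 ligand), Tnfsf11 (RANK ligand), Tnfsf15 (TL1A), Tnfrsf11a (RANK), Tnfrsf19 (TROY) and Tnfrsf21 (DR6) lay between 2.82% and 6.75%, below the 7.69% median of all genes. Their nearest peaks were 77 to 144 kb away. Neither a peak nor a region was found at 3 of 31 members (9.68%), against 29.6% of all genes. These were Tnfsf13b, which encodes BAFF, Tnfsf18, which encodes GITR ligand, and Tnfrsf11b, which encodes the secreted RANK ligand decoy osteoprotegerin. The nearest Runx3 peak to Tnfrsf11b was 786 kb away. When windows reached 50 kb on either side, 6 of the 16 members without a peak gained one and 10 did not, and the share rose to 67.7% of members, against 62.6% of all genes.

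Ligand and receptor genes of the same pair were then set side by side for 11 pairs fixed from textbook knowledge. In 3 pairs both genes had a peak, namely CD30 ligand and CD30, TRAIL and Tnfrsf10b, and TWEAK and Fn14. For Tnfrsf10b this was the single upstream peak over a tandem repeat. A peak was found at the ligand alone for APRIL with TACI, where the peaks lay in and upstream of the neighbouring Tnfsf12, and for LIGHT with HVEM, and at the receptor alone for CD137 and the BAFF receptor. The other 4 pairs (OX40, RANK, DR3 and GITR with their ligands) had none. H3K4me1 coverage was higher at the receptor in 7 pairs and at the ligand in 4. The gap was widest for GITR, with 61.1% at the receptor and 0% at its ligand. Unrelated pairs were not counted. The pair counts have beside them only the 44.2% of single genes with a peak and the median coverage, 27.8% at receptors and 15.4% at ligands. Whether partners go together was not tested.

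RUNX matches were compared with those of all Runx3 peaks. A match was found in 36 of 38 member peaks (94.7%, interval 82.7 to 98.5%), against 93.3% of all peaks, and within the central 200 bp in 31 of 38 (81.6%), against 69.1% of all peaks. The density was 4.31 matches per kb at members and 3.19 over all peaks, and TGTGGT made up 59.7% of the matches, against 44.5%. Both differences depended on a few peaks. Among member peaks, 4 of 38 (10.5%) held at least 6 matches all on 1 strand, against 0.786% of all peaks. These were the peaks at Tnfrsf10b, Tnfrsf22 and Tnfrsf23 described above and the Tnfrsf1b peak with the overlapping pair. Without such peaks, members had 3.29 and all peaks 3.13 matches per kb, and TGTGGT made up 44.1% and 43.7%. The rule for leaving them out was set after the repeats were seen.

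**Figure D4:**
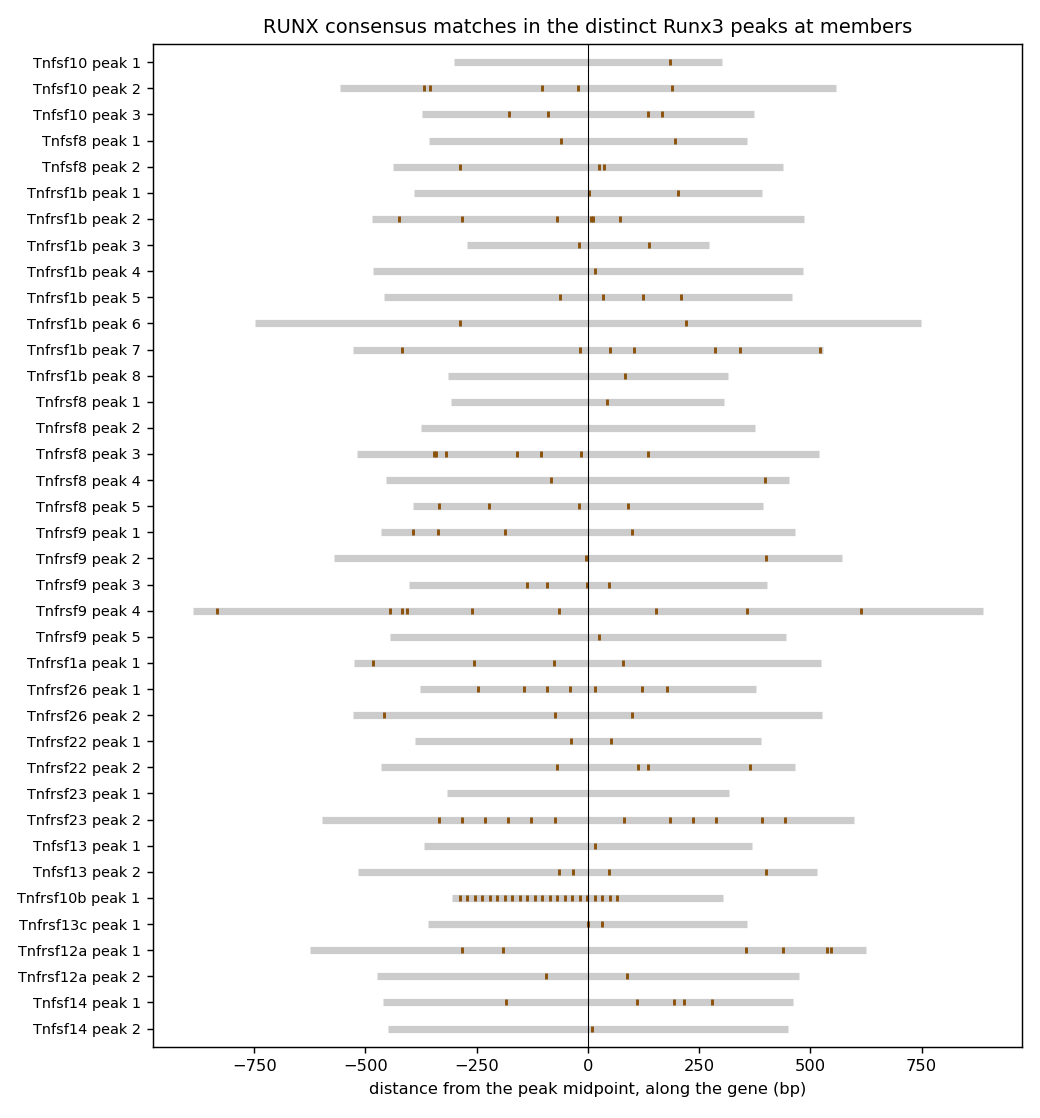
RUNX consensus matches (brown ticks) in the 38 distinct member peaks (grey bars, to scale), by distance in bp from the peak midpoint along the gene. The Tnfrsf10b peak shows 22 evenly spaced matches, and the third peak of Tnfrsf22 (drawn as Tnfrsf26 peak 1) and the second of Tnfrsf23 show 7 and 12 at wider steps.

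The ETS consensus, searched as AGGAAGT and CGGAAGT on both strands, was found in 13 of 38 member peaks (34.2%), against 41.8% of all peaks, and in the central 200 bp of 3 (7.89%), against 20.1%. An ETS and a RUNX match within 50 bp of each other occurred in 6 of 38 (15.8%), the same share as over all peaks. These were peaks at Tnfrsf8 (2), Tnfrsf9, Tnfrsf1a, Tnfrsf22 and Cars. In the 10 peaks within 1 kb of a member start, TGCGGT and TGCGGC made up 20% and 11.4% of matches, and in the other 28 peaks 2.63% and 4.39%. Leaving out the peaks of at least 6 matches on 1 strand gave 21.4% and 14.3% near member starts. In the rest it gave 4.05% and 6.76%. The rest included peaks 17, 21 and 69 bp from the starts of Park7, Hcfc1r1 and Cars. The Park7 and Hcfc1r1 peaks held 3 and 1 of its 5 TGCGGC matches, so 6.76% is not a share away from all starts. All 4 TGCGGC matches near member starts were in 1 peak, over the start of Tnfrsf12a, and without it the share there was 0%. Median GC content of the 10 and the 28 peaks was 52.2% and 49.1%.

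Of superfamily genes under other symbols, 6 of 15 had a peak and 12 of 15 had H3K4me1, beside 44.2% and 70.2% of all genes. Tnf, Lta and Ltb, the genes of TNF and the lymphotoxins, had 3, 1 and 4 peaks in windows that overlap, 4 distinct peaks in all, so these 3 of the 6 genes are not independent. Fasl had 5, the costimulatory receptor gene Cd27 3 and Relt 3. H3K4me1 covered 97.8% of the Fasl window, 96.3% at Ltb and 90.5% at Cd27, more than at any Tnfsf or Tnfrsf gene. No peak was found at Cd40lg, Cd70, Eda, Fas, Cd40, Ltbr, Ngfr, Eda2r or Edar. Of 13 genes for signalling proteins downstream of the receptors, 11 had a peak and 7 at least 2, beside the 44.2% and 19.9% of all genes. Traf1 and Traf5, adaptors of TRAF-binding receptors, had 6 each and Tradd, the death-domain adaptor, 4. The genes without a peak were Traf6 and Cflar, and all 13 had H3K4me1.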

How the data were processed

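Chromatin fixed in 1% formaldehyde was sonicated to about 300 bp, precipitated with anti-Runx3, anti-H3K4me1 or NIS and sequenced as 40 bp reads. According to the labels and methods, the authors aligned reads to mm9 with ELAND, kept unique alignments and called regions with MACS against NIS. That biological repeats were joined before calling is stated by the methods alone. The labels call each sample the first IP experiment. The submitters' processing notes name CASAVA 1.7. The deposited lists hold only coordinates, of 15524 Runx3 and 49902 H3K4me1 regions; depth per region is unknown. Starts were converted to 1-based positions.

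Regions sharing at least 1 bp with a GENCODE M1 protein-coding gene and 10 kb on either side were counted. Of 22380 entries, those with the same symbol that overlapped on the same chromosome were joined, which gave 22283 genes. Motifs were read from the mm9 sequence. Python 3.11.15 with SciPy 1.17.1 gave Wilson intervals; counting was tested on simulated data. With 1 list per antibody, no test was run. The gene family, its symbol rule, the textbook pairs and the lists were chosen with earlier results of these data known. The genes described in full were those with at least 2 peaks or a peak within 1 kb of a start, and Tnfrsf1a, Tnfrsf10b and Tnfrsf18, which were added after their values were seen. Alternatives changed the window, the overlap rule, the minimum width and the set of loci. The NIS reads were not analysed here.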

Additional observations from a re-analysis of the deposited data

How the results depend on the processing

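For 8 shares and differences, 56 alternatives were computed, and 53 kept the value within its main interval and its sign. These intervals are wide and the alternatives reuse the same lists, so staying inside says little about stability. For ligands with a peak, shares from 36.4% to 63.6% lay inside the interval of 21.3 to 72%. With Runx3 regions wider than the median alone, the difference between receptors and ligands in Runx3 occupancy changed sign, to -5.45 percentage points. The share of member peaks with an RUNX match was 81.6% when only the central 200 bp were searched and 100% among the 22 peaks wider than the median. A narrower or wider stretch has fewer or more places for a match, and its part in these values was not tested. Leaving out peaks with at least 6 matches on 1 strand, an alternative added after seeing the data, gave 94.1%. No paired analysis was possible because each antibody has 1 list and no test was made. Without scores, weak and strong regions could not be told apart, an absent region may be one below the caller's threshold, and the number of genes limits every comparison of classes.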

Other observations

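At the Tnfrsf1b and Tnfrsf8 pair, extending the windows to 50 kb gave 11 peaks for Tnfrsf1b and 12 for Tnfrsf8, windows that overlap. Tnfrsf25, without a peak within 10 kb, had 4 within 50 kb, and Tnfrsf18 had 2.

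Peaks with many RUNX matches were also seen at members outside the repeats. At least 6 matches were held by 8 of 38 member peaks (21.1%) and by 1174 of 15524 Runx3 peaks (7.56%). These counts include the peaks with all matches on 1 strand, 4 at members and 122 over all peaks. Member peaks were also wider, with a median of 902 bp against 825 bp. Beside the 4 with all matches on 1 strand, the 8 were the seventh peak of Tnfrsf1b (7 matches, 6 of them TGTGGC), the third of Tnfrsf8 (7), the fourth of Tnfrsf9 (9) and the first of Tnfrsf12a (6). In these 4, and in the second peak of Tnfrsf1b, whose 6 matches lie on 1 strand at uneven steps of 5 to 212 bp, none of the 40-base stretches recurred within the peak.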
